A study of Mus musculus with 14 samples.

Results

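The replication-dependent histone genes are the multicopy genes that supply the core histones H2A, H2B, H3 and H4 and the linker histone H1 when chromosomes are copied. Here they are the rows of the deposited gene tables whose symbol starts with Hist1h to Hist4h, leaving out a symbol that ends in -ps. This gave 70 of 45706 genes, with 69 distinct symbols because Hist2h2bb names both a protein-coding row and a lincRNA row. By class there were 6 H1, 20 H2A, 19 H2B, 12 H3 and 13 H4 genes. By cluster, 56 lie in Hist1 on chromosome 13, 11 in Hist2 on chromosome 3, 2 in Hist3 on chromosome 11 and 1 (Hist4h4) on chromosome 6. The annotation gives 2 of them, Hist1h2aj and Hist1h2al, as pseudogenes.

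The study deleted Prmt5, the gene of a protein arginine methyltransferase, in mouse blood-forming cells and compared RNA of 14 libraries. The fetal libraries came from E14.5 fetal liver cells sorted by Ter119, a surface antigen of maturing erythroid cells, into Ter119neg and Ter119pos fractions of PRMT5fl/fl; Vav-cre (KO) or PRMT5fl/fl (WT) mice, with 2 libraries in each of the 4 groups. Both fractions were sorted from KO mice 1 and 2 and from WT mouse 4, whose libraries are the WT libraries B, while WT library A came from mouse 3 in Ter119neg and mouse 5 in Ter119pos. The LK libraries, 3 in each group, came from sorted LK cells of Mx1-cre;PRMT5fl/fl (KO) or PRMT5fl/fl (WT) mice, all taken 7 days after poly(I:C), an inducer of interferon that switches Mx1-cre on and that the WT mice received too. All groups carry the floxed allele, so WT means floxed without Cre. Vav-cre acts in blood cells and their precursors and leaves other fetal liver cells undeleted, and the labels do not give the share of deleted cells. The labels name no mice for LK, so its p-values measure the spread between libraries, which may be technical.

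Replication-dependent histone genes are transcribed in S phase, and their mRNAs normally end in a conserved stem-loop instead of a poly(A) tail. The stem-loop is bound by SLBP and cut by a complex that holds the U7 snRNP, and it also directs the decay of the mRNA when DNA synthesis stops. NPAT drives transcription of all classes, HINFP is known for H4 and OCT1 (Pou2f1) for H2B. In erythroid precursors the last divisions run alongside chromatin condensation, before the nucleus is lost.

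The stem-loop is shown because it sets the members apart from most mRNAs and because it varied by class. A 16-base stem-loop with 6 paired bases on each side was found in the annotated 3′ UTR of 46 members, of 51 with at least 40 annotated UTR bases. The first form below stood in 26 members, among them Hist1h1c, Hist2h2aa1 and Hist1h3a. The second stood in 7 genes, all H4 (Hist1h4c, Hist1h4d, Hist1h4f, Hist1h4h, Hist1h4m, Hist1h4n and Hist4h4). The third stood in 6 genes, among them Hist1h2bk, Hist1h3c and Hist1h3f. No capitals are used in these lines, since the whole run is the motif.
Form of 26 members: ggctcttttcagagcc
Form of 7 H4 genes: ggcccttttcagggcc
Form of 6 members: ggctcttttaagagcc

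For 23 members the annotation runs on for over 100 bases after the stem-loop. No stem-loop was found in 5 genes with a 3′ UTR of at least 40 annotated bases, namely Hist1h1a (48 bases), Hist1h2bc (742), Hist1h2bq (1608), Hist1h2br (1803) and Hist2h2be (2192). Of these, Hist1h2bc, Hist1h2bq and Hist1h2br are annotated with spliced transcripts. The search covered annotated transcripts alone. Within the classes, the 13 H4 genes encode 1 protein. The coding sequences of Hist1h4m and Hist1h4n, Hist2h2aa1 and Hist2h2aa2, Hist1h2ao and Hist1h2ap, and Hist1h2bq and Hist1h2br are identical in pairs, and those of Hist2h3b and Hist2h3c2 differ at 1 base of 411. How reads were split within such copies is uncertain, so sums are given beside single genes.

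Promoters are shown for Hist1h4c and Hist1h1c, from the classes at either end of the Ter119pos result, and for Hist1h2bk, which faces an H2A gene. They are RefSeq sequences of GRCm38.p6, from 250 bases before to 50 bases after the annotated start, with the CCAAT box, the TATA box letters TATAAA and the octamer letters ATTTGCAT in capitals on either strand. No capital runs overlap in these 3 windows. Hist1h2bk is at chr13:22035571-22035870 on the plus strand, Hist1h1c at chr13:23738557-23738856 on the plus strand and Hist1h4c at chr13:23698409-23698708 on the minus strand. The first window fills the space between Hist1h2bk and Hist1h2ah, an H2A gene that starts 302 bases away on the other strand.
Hist1h2bk: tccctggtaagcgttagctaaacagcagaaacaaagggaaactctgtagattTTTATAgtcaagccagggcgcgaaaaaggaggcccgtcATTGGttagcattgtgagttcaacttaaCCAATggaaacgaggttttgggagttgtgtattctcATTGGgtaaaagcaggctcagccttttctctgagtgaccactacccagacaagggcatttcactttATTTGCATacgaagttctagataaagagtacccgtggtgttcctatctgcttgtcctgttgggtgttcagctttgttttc
Hist1h1c: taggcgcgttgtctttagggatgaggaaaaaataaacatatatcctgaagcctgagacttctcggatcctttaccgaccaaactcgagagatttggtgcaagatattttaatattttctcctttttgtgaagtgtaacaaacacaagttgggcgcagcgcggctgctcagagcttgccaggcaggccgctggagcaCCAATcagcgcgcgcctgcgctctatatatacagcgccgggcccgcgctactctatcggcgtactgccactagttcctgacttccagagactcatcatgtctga
Hist1h4c: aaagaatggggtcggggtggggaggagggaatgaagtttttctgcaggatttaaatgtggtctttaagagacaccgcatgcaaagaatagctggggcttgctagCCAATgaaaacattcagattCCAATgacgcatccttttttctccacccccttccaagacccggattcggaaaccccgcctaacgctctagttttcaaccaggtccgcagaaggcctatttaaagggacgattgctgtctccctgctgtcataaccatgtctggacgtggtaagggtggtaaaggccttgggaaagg

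Of 62 members with such a window, 85.5% held CCAAT, against 37.4% of all 32851 promoters. CCAAT stood in every H1, H2A, H2B and H3 window and in 3 of 12 H4 windows, that of Hist1h4c among them. TATAAA stood in 56.5% of member windows against 13.6% of all. It stood in 8 of 12 H4 and 4 of 6 H1 windows, but not in those of Hist1h4c and Hist1h1c. ATTTGCAT stood in 24.2% of member windows against 1.7% of all, in 7 of 17 H2A and 8 of 17 H2B windows and in no H1, H3 or H4 window. These are matches of letters, and a window without one says nothing of the factor.

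Raw depth was alike across populations, with 19514544 to 30976936 counts per LK library, 22381029 to 27620692 per Ter119neg library and 19880025 to 29652907 per Ter119pos library. The library sizes after TMM normalisation, which set the CPM, were not alike. They were 12337036 to 36962687 in LK, 36371248 to 51398367 in Ter119neg and 11591256 to 16993331 in Ter119pos. Prmt5 was lower in KO in each population, at 11.5 against 81.0 CPM in LK, 4.38 against 52.0 in Ter119neg and 4.28 against 15.7 in Ter119pos (log2 fold changes -2.81, -3.57 and -1.89, edgeR adjusted p = 0.00669, 1.45e-07 and 2.31e-06). The summed level of 9 erythroid markers was 303200 to 439500 CPM in Ter119pos and 606.5 to 1597 CPM in Ter119neg, in the order the sort implies. LK libraries of letter B stood apart, with 18.0% (WT) and 23.4% (KO) of counts on Rn18s, against 0.0394% to 0.180% in letters A and C. Of all counts, 7 other structural RNAs without a poly(A) tail (Rn7sk and its like) took 6.095% to 35.96% in the fetal libraries and 0.000307% to 0.0249% in LK. The labels name a total RNA kit for LK too, but with so little of these RNAs it is not known how far the LK libraries cover RNA without a poly(A) tail, histone mRNA included.

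Histone transcripts were abundant in both fetal fractions and scarce in LK cells. The members took 2.188% to 3.233% of counts in Ter119neg, 1.274% to 3.152% in Ter119pos, 0.00682% to 0.00955% in LK letters A and C, and 0.0406% (WT) and 0.0380% (KO) in letter B. LK and fetal libraries were made by different RNA protocols, so tissue and protocol cannot be told apart. In CPM (counts scaled to a common library size with TMM normalisation), the members summed to 16100 ± 3778 in Ter119neg WT, 15000 ± 1518 in Ter119neg KO, 17630 ± 3861 in Ter119pos WT and 61240 ± 5934 in Ter119pos KO (SD, n = 2 each). On this scale the first 3 of these groups overlap, and both Ter119pos KO libraries lie above them. As a share of all counts, Ter119pos KO (2.328% and 3.152%) overlapped Ter119neg WT (2.638% and 3.233%). Ter119pos WT (1.274% and 1.611%) then lay below every Ter119neg library. In bulk RNA, fewer cells of a type and less RNA per cell cannot be told apart.

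**Figure D1:**
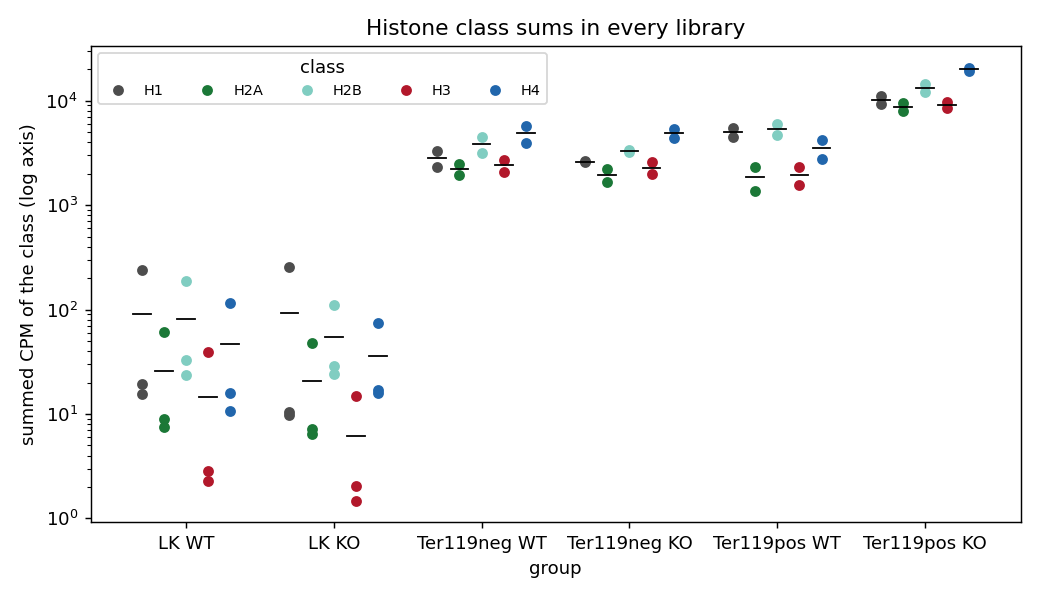
Summed TMM-normalised CPM of each histone class (log axis) in every library of the 6 groups; each point is 1 library and each line a group mean. On this TMM scale all 5 classes are highest in Ter119pos KO, where H4 reaches 19930 CPM on average. As a mean share of all counts, H1, H2A, H2B and H3 are higher in Ter119neg WT than in Ter119pos KO. In LK 1 library of each group, letter B, sits above the others.

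Per kb of annotated transcript, the highest level was an H4 gene in Ter119neg WT (Hist1h4h, 1437 CPM per kb), Ter119neg KO (Hist1h4h, 1444) and Ter119pos KO (Hist1h4f, 5822), and an H2B gene in Ter119pos WT (Hist1h2bn, 1642). In LK the highest was Hist1h4i, at 38.5 CPM per kb in WT and 39.2 in KO. Counts were spread thinly in the fetal fractions, where the top 10 genes of Ter119neg WT held 36.0% of member counts. In LK 5 genes, Hist1h1c, Hist1h2bc, Hist1h4i, Hist2h2be and Hist3h2a, held 73.1%, 28.1% and 71.9% of member counts in the WT libraries A, B and C and 77.8%, 24.9% and 79.95% in KO, so the letter B libraries stand apart. Expressed least were Hist1h2aa and Hist1h2ba, known from testis, which were at 0 in each library outside Ter119pos KO and were not tested in any comparison.

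In Ter119pos cells, histone transcripts of all 5 classes were higher in KO than in WT. Of 68 members tested, 65 rose, against 24.8% of all genes tested called higher, and 2 fell, against 29.3% called lower (edgeR quasi-likelihood test, adjusted p under 0.05). The median log2 fold change was 2.05 over the members and -0.04 over all genes. It was 2.57 for H4, 2.37 for H2A, 2.25 for H3, 1.21 for H2B and 1.11 for H1. All 6 H1, 19 H2A and 13 H4 genes tested rose, with 16 of 18 H2B and 11 of 12 H3 genes, although 2 H1 and 3 H2B genes turned below 0 when library totals replaced the TMM factors.

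**Figure D2:**
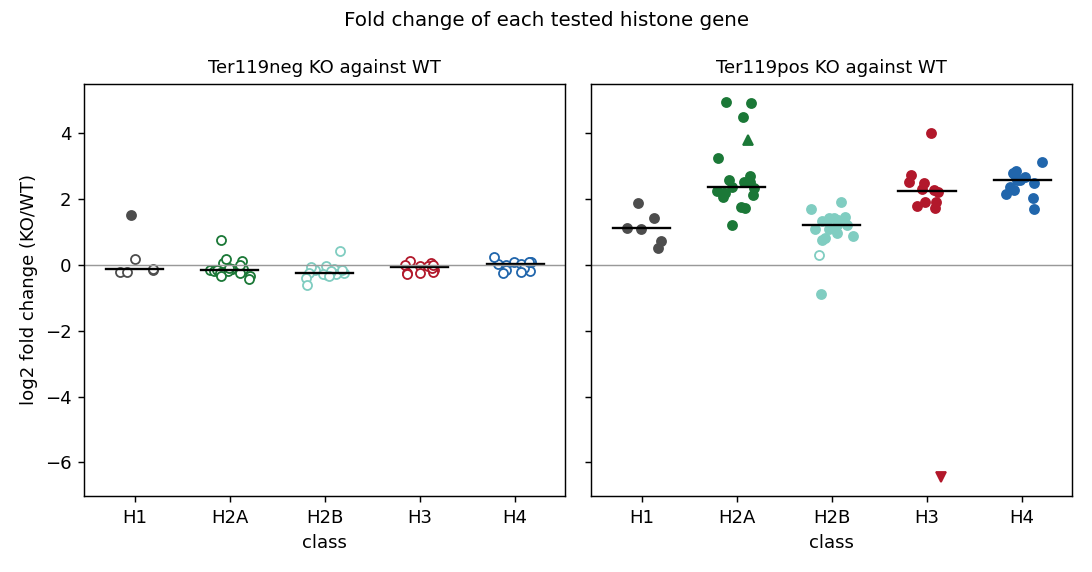
Log2 fold change KO over WT of each tested member by class in Ter119neg and Ter119pos cells; filled symbols passed an edgeR adjusted p under 0.05, open ones did not, bars are class medians and triangles are bounds for genes at 0 in a group. In Ter119pos 65 of 68 members lie above 0 and pass on this TMM scale (5 of them turn with library totals), and in Ter119neg 1 does.

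The H1 genes encode the linker histone that binds DNA between nucleosomes. Hist1h1c, the most abundant H1 gene, was at 3897 and 3319 CPM in the Ter119pos KO libraries and 1896 and 1394 CPM in WT. Both KO libraries were above both WT libraries (log2 fold change 1.13, SE 0.215, adjusted p = 0.000688). The smallest rises called were those of Hist1h1e (0.53) and Hist1h1b (0.73), which with library totals were -0.35 and -0.14 (adjusted p = 0.146 and 0.591), and the largest in the class was that of Hist1h1t (1.88), a testis H1 gene at 7.29 ± 2.26 against 2.00 ± 0.493 CPM (SD, n = 2 each).

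H2A and H2B pair as dimers in the nucleosome. Hist2h2aa1 was at 1807 and 1499 CPM in KO and 393.1 and 245.7 in WT, with no overlap (2.37, SE 0.249, adjusted p = 5.76e-06). The H2A gene with the largest fold above 5 CPM, Hist1h2ai, was at 200.4 and 199.6 CPM in KO and 9.5 and 3.59 in WT (4.94, SE 0.49, adjusted p = 3.72e-06). Hist1h2ah was at 64.5 and 69.5 CPM in KO and 4.27 and 1.65 in WT (4.50, SE 0.506, adjusted p = 1e-05). In these genes every KO library was above every WT library, with WT levels among the lowest of the class. Hist1h2an was at 247.5 and 215.6 against 33.8 and 15.1 CPM (3.25, SE 0.307, adjusted p = 2.53e-06). The pseudogene Hist1h2aj had no count in WT and was at least 13.9-fold higher in KO, taking 3 counts over the group as the floor, and Hist1h2al had 17 and 10 counts in KO against 1 and 0 in WT.

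Hist1h2bk, the most abundant H2B gene, was at 1680 and 1449 CPM in KO and 692.1 and 518.3 in WT (1.37, SE 0.205, adjusted p = 0.000106; 0.45 and 0.0556 with a trend on transcript length removed). The groups did not overlap. Hist2h2be went the other way. It encodes an H2B variant known from olfactory neurons and has one of the long 3′ UTRs without a stem-loop. Its levels were 14.8 and 11.8 CPM in KO and 26.2 and 22.8 in WT, each KO library below each WT library (-0.87, SE 0.147, adjusted p = 0.000284). The H2B row not called was the lincRNA row of Hist2h2bb (1.27 against 1.04 CPM, adjusted p = 0.637).

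H3 and H4 form the core tetramer of the nucleosome. Hist1h3f was at 1551 and 1414 CPM in KO and 368.9 and 234.4 in WT (2.30, SE 0.235, adjusted p = 4.73e-06). Hist1h4c was at 3193 CPM in both KO libraries and 623.3 and 436.8 in WT (2.59, SE 0.248, adjusted p = 2.79e-06). Neither gene overlapped between genotypes, and the H4 range ran from 1.69 (Hist2h4) to 3.12 (Hist1h4m).

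The Hist2h3 copies show why sums are needed. Hist2h3b was at 609.9 and 537 CPM in KO and at 72.2 and 0 in WT (3.99, SE 1.12, adjusted p = 0.00925 in edgeR and 0.15 in DESeq2). Hist2h3c1 had no count in KO and 7.82 and 12.6 CPM in WT, at least 88.2-fold lower. Both libraries of Ter119neg KO and of Ter119neg WT also had no Hist2h3c1 count, so the reads of this gene were present in Ter119pos WT alone of the fetal groups. The 3 copies summed to 1441 ± 137.2 CPM in KO and 279.2 ± 120.8 in WT, a 5.16-fold difference without overlap. Likewise Hist1h4m and Hist1h4n summed to 3386 ± 239.1 against 492.8 ± 154 CPM, a 6.87-fold difference.

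The size of the rise depended on the scale. H4 rose most and H2B and H1 least on either scale. In TMM-normalised CPM the class sums were 5.71-fold (H4), 4.72-fold (H3), 4.70-fold (H2A), 2.49-fold (H2B) and 2.03-fold (H1) those of WT. As a share of all counts they were 3.12-fold, 2.58-fold, 2.59-fold, 1.36-fold and 1.11-fold, and H1 overlapped between genotypes. With library totals in place of TMM factors, 50 members were called higher, against 8.72% of all genes, and 2 lower, against 54%. The 5 called members that turned were Hist1h1e, Hist1h1b, Hist3h2ba (-0.12), Hist1h2bq (-0.04) and the protein-coding row of Hist2h2bb (-0.005), none called lower. The median over all genes then moved to -0.93, and that of the members was 1.19. By class the calls higher were 13 of 13 H4, 18 of 19 H2A, 11 of 12 H3, 6 of 18 H2B and 2 of 6 H1, and Hist1h1c had 0.26 (adjusted p = 0.284).

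In Ter119pos KO against WT, structural RNAs rose as the histone transcripts did. The 7 structural RNAs other than Rn18s took 35.96% and 34.58% of counts in the Ter119pos KO libraries and 6.095% and 6.203% in WT. With Rn18s included, 7 of the 8 structural RNAs were called higher, against 24.8% of all genes, with a median log2 fold change of 3.21. Globin transcripts took 16.4% and 18.3% in KO and 25.1% and 24.6% in WT. With both sets left out of the total, the members took 6.617% and 4.939% of counts in KO and 2.343% and 1.84% in WT, so KO stayed above WT. The part of structural RNA in the histone result was not tested.

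The class make-up of histone counts needs no scaling factor, and in it Ter119pos WT stood apart from the other 3 fetal groups. H4 took 19.6% ± 1.65 of member counts in Ter119pos WT, 32.6% ± 1.25 in Ter119pos KO, 30.0% ± 1.05 in Ter119neg WT and 32.4% ± 1.25 in Ter119neg KO (SD, n = 2 each). H1 took 28.6% ± 2.20, 16.5% ± 0.405, 17.4% ± 0.219 and 17.5% ± 1.96 in the same order. The ratio of H4 to H1 counts was 0.768 and 0.612 in the Ter119pos WT libraries and 1.67 to 2.06 in the other 6 fetal libraries. The ratio of H2A to H2B counts was 0.391 and 0.291 in Ter119pos WT and 0.519 to 0.663 in the others. In both ratios the 2 Ter119pos WT libraries lie below every other fetal library.

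**Figure D3:**
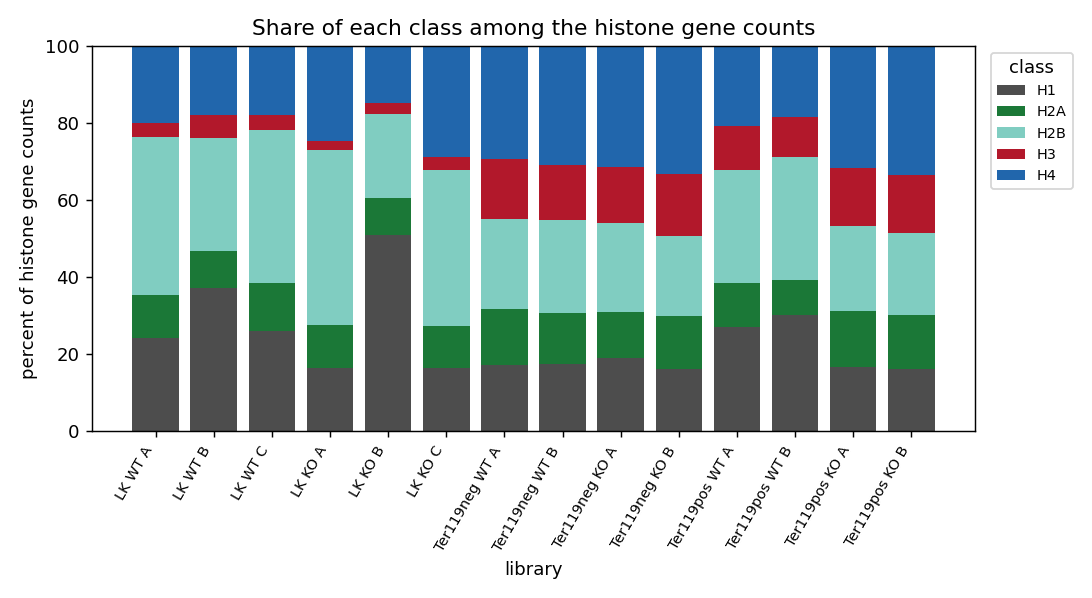
Stacked bars of the share of each histone class in the member counts, in percent, for each of the 14 libraries, a measure that does not depend on normalisation. Among the fetal libraries H4 is lowest and H1 highest in the 2 Ter119pos WT libraries, at means of 19.6% and 28.6%.

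The contrast of H2A and H2B is given next for genes that start head to head from a shared promoter stretch. These counts are part of the class ratios above, so the pairs are not separate support for them. In 13 places an H2A and an H2B gene start 176 to 306 bases apart on opposite strands, as Hist1h2ah and Hist1h2bk do in the window printed above, and 12 pairs were tested. In Ter119pos KO against WT the H2A gene had the higher log2 fold change in 12 of 12 pairs. The median difference was 1.55 (0.20 to 3.84, the pair of Hist1h2aj at its bound). With a length trend removed the H2A gene was ahead in 10 of 11 pairs, by a median of 1.25. The pairs Hist1h2ao with Hist1h2bq and Hist1h2ap with Hist1h2br are copies in coding sequence, so they do not count separately. Hist1h2ah rose by 4.50 and Hist1h2bk by 1.37, and Hist1h2ai rose by 4.94 and its neighbour Hist1h2bl by 1.09 (-0.09 with a length trend removed). In the Hist2 cluster Hist2h2ac rose by 2.07 while Hist2h2be fell by 0.87. In Ter119neg KO against WT the H2A gene was ahead in 8 of 12 pairs, by a median of 0.10.

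**Figure D4:**
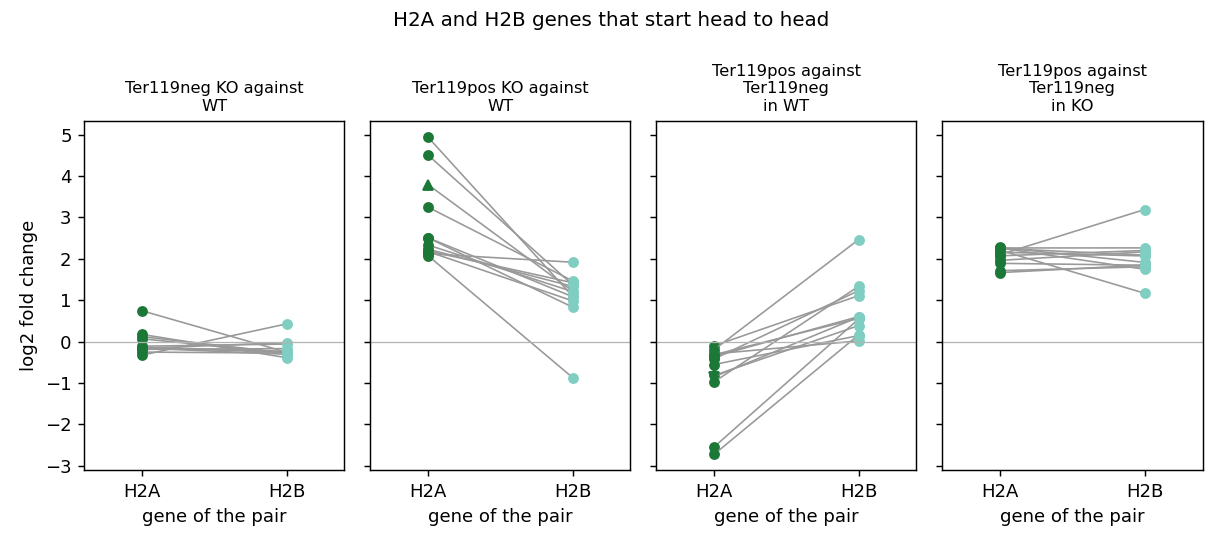
Log2 fold changes of the H2A and the H2B gene of each of 12 head-to-head pairs in 4 comparisons, joined by a line; triangles are bounds. In Ter119pos KO against WT every line falls from H2A to H2B, and in Ter119pos against Ter119neg in WT every line rises.

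Base composition and length moved with these differences. The median GC content of the longest annotated transcript was 64.25% for H2A, 59.85% for H3, 56.2% for H4, 55.4% for H2B and 53.15% for H1. Across 68 members, which share libraries and in part sequence, the Ter119pos log2 fold change had a Pearson r of 0.43 and a Spearman rho of 0.52 with GC content, and -0.41 and -0.46 with transcript length. In Ter119neg these were 0.03 and 0.07 for GC content. In 10 of 12 head-to-head pairs the H2A gene is the one with more GC. The other 2 pairs are Hist1h2ad with Hist1h2bf (59.4% and 60.1%, log2 fold changes 2.51 and 1.08) and Hist1h2ac with Hist1h2bc (45.9% in both, 2.23 and 1.33). With a per-library trend on GC content removed, the H2A gene was ahead in 9 of 11 pairs, by a median of 0.90, and 59 members of 66 were called higher, against 23.9% of all genes. The H2B median was then 0.93, the H1 median 1.03 and the H4 median 2.18.

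In Ter119neg cells the genotypes differed little in histone transcripts. Of 68 members tested, 1 was called, against 19.1% of all genes tested, and this was higher (9.57% of all genes). The median log2 fold change was -0.16, and 3 members had an unadjusted p under 0.05. The member called was the testis H1 gene Hist1h1t, at 2.91 and 1.97 CPM in KO and 0.876 and 0.835 in WT (1.51, SE 0.30, adjusted p = 0.00447). KO was above WT in both libraries, and without KO library A no member was called higher.

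The abundant members of each class overlapped between genotypes in Ter119neg or lay close. Hist1h1c was at 538 and 573 CPM in KO and 528.4 and 765.4 in WT. Hist1h2bk was at 440.8 and 454.3 CPM in KO and 442 and 641.5 in WT. Hist1h4c was at 606.7 and 757.4 CPM in KO and 491.8 and 780.6 in WT. In Hist1h1c and Hist1h4c the KO values lie between those of WT, and in Hist1h2bk 1 of 2 does. Hist2h2aa1 was at 274.3 and 364.6 CPM in KO and 268.9 and 369.3 in WT, and Hist1h3f at 318.5 and 413.6 against 313.7 and 424.3, again with KO inside the WT range. On simulated counts with the fetal spread, 97 of 100 genes changed 2-fold in this comparison were recovered. The changed genes were drawn from those above 5 CPM, leaving out the most variable. As a share of all counts the members took 2.263% and 2.188% in KO and 2.638% and 3.233% in WT, without overlap, while structural RNAs took 27.62% and 31.41% in KO and 16.68% and 23.32% in WT. With library totals 6 members were called lower, against 18.8% of all genes, and 1 higher, against 3.98%.

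The difference of the KO effect between the fractions was tested directly. It was higher in Ter119pos for 63 of 68 members, against 19.3% of all genes, and lower for 1, against 22.4%. The median difference was 2.17 on the log2 scale. The largest among genes of at least 5 CPM were those of Hist1h2ai (4.82, SE 0.618, adjusted p = 9.54e-05), Hist1h2ah (4.44), Hist2h3b (4.24, adjusted p = 0.0349) and Hist1h2an (3.07). The most abundant members of each class gave 2.49 (Hist1h4c), 2.37 (Hist2h2aa1), 2.31 (Hist1h3f), 1.65 (Hist1h2bk) and 1.35 (Hist1h1c). The gene called lower was Hist2h2be (-1.30, SE 0.211, adjusted p = 0.000437). With library totals 55 members were called higher, against 7.28% of all genes, and 1 lower, against 34.3%.

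From Ter119neg to Ter119pos in WT, most linker and H2B genes rose and H2A and H4 genes mostly did not, on the TMM scale (with library totals 2 H2B genes and no H1 gene rose). Of 68 members 20 rose, against 35.9% of all genes, and 16 fell, against 40.4%. By class, 5 of 6 H1 and 12 of 18 H2B genes rose and none fell, and 7 of 19 H2A genes fell and none rose. Of 12 H3 genes 1 rose, the read-sharing copy Hist2h3c1, and 4 fell. Of 13 H4 genes 2 rose and 5 fell. Hist2h2be was at 26.2 and 22.8 CPM in Ter119pos and 4.13 and 4.77 in Ter119neg (2.46, SE 0.148, adjusted p = 1.35e-08). Hist1h1c was at 1896 and 1394 CPM against 528.4 and 765.4 (1.35, SE 0.216, adjusted p = 0.000104). Both genes were higher in each Ter119pos WT library.

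Lower in Ter119pos WT were Hist1h2ah, at 4.27 and 1.65 CPM against 20.4 and 18.6 (-2.73, SE 0.506, adjusted p = 0.000334), and Hist1h2ai, at 9.5 and 3.59 against 44.3 and 32.0 (-2.55, SE 0.465, adjusted p = 0.000293). Hist2h2ab (-1.21) and Hist1h4m (-1.10) followed, and Hist3h2ba (1.79) was among those that rose. Hist2h3c1, at 0 in Ter119neg WT, was at least 318-fold higher, but it shares reads with its copies. The 3 Hist2h3 copies summed to 279.2 ± 120.8 CPM in Ter119pos WT and 320.5 ± 39.15 in Ter119neg WT, with overlap. In 0 of 12 head-to-head pairs did the H2A gene have the higher fold, with a median difference of -1.33 (-3.09 to -0.31).

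These WT counts moved with scale, with the pairing of mice and with single libraries. With library totals 3 members were called higher, against 16.6% of all genes, and 56 lower, against 65%, with the median over all genes at -1.35. With mouse as a block, where WT rests on mouse 4 alone, 9 were called higher, against 33.5%, and 39 lower, against 35.1%. Without the Ter119neg WT library A 10 were higher (31.4% of all genes) and 22 lower (36.7%), and without the Ter119pos WT library A 10 (31.7%) and 25 (34%). Without the Ter119neg WT library B they were 23 (31.3%) and 14 (37.8%), and without the Ter119pos WT library B 22 (32.4%) and 8 (34.8%). With a GC trend removed they were 37 (38.1%) and 4 (36.6%). Under library totals the class medians were -0.30 (H1), -0.58 (H2B), -1.41 (H3), -1.59 (H2A) and -1.63 (H4).

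From Ter119neg to Ter119pos in KO, 66 of 68 members rose, against 30.3% of all genes, with a median of 2.02 and none lower. The classes moved alike, with medians of 1.68 (H1), 1.95 (H3), 2.02 (H2B), 2.05 (H4) and 2.10 (H2A), and the H2A gene was ahead in 6 of 12 head-to-head pairs. Hist1h2bp was at 364.5 and 301.8 CPM in Ter119pos and 33.4 and 39.6 in Ter119neg (3.19, SE 0.19, adjusted p = 2.65e-08). Hist3h2ba followed at 2.87, Hist1h1c at 2.70 and Hist1h4i at 2.65. The 2 not called were Hist2h3b (2.43, adjusted p = 0.0578) and Hist2h3c1, at 0 in all 4 libraries. With library totals, which moved the median over all genes to -1.86, 17 members were called higher, against 5.92%, and 2 lower, against 78.8%.

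In LK cells no member was called between KO and WT. Of 70 members 36 had enough counts to be tested and 0 were called, against 1.82% of all genes tested, with 0 at an unadjusted p under 0.05 in edgeR and 0 called by DESeq2 or limma-voom. The median log2 fold change was -0.81, against -0.09 over all genes. It was 1.32 without WT library B and -2.92 without KO library B. In simulated LK counts 2 of 100 genes with a 2-fold change passed the test, as did 66 of 100 with a 4-fold change. These genes were drawn from those above 5 CPM, leaving out the most variable. The recovery does not cover members of lower level, such as Hist1h4c and Hist1h3c. It may also not cover members of higher level that vary widely within a group. Hist1h1a, for example, was at 0.649, 40.9 and 0.321 CPM in the WT libraries A, B and C.

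LK levels moved with the letter of the library. Of 62 members with over 3 counts in letters A and C, 57 were over 2-fold higher in CPM in the letter B libraries and 42 over 10-fold, with a median of 13.7-fold and a highest of 111.8-fold (Hist1h1e). The 5 others were Hist2h2be (1.15-fold), Hist1h2bc (1.96-fold), Hist1h2bq (0.534-fold), the lincRNA row of Hist2h2bb and Hist1h2ai, which had 16 counts in all LK libraries. Hist2h2be, Hist1h2bc and Hist1h2bq are 3 of the 5 genes named above as lacking a stem-loop in an annotated 3′ UTR. The others of that set were 100-fold (Hist1h1a) and 37.5-fold (Hist1h2br) higher. Hist1h2bq and Hist1h2br have identical coding sequences, so their separate folds depend on how reads were split. Their sum was higher in letter B, at 10.9 (WT) and 8.23 CPM (KO) against 0.739 to 1.24 in letters A and C. The 5 genes under 2-fold held 32.8% of member counts in letters A and C and 5.79% in letter B. These folds rest on TMM library sizes of 12337036 and 14942934 in letter B and 32434412 to 36962687 in letters A and C. As a share of all counts the members took 0.0406% and 0.0380% in letter B and 0.00682% to 0.00955% in the others. Such folds were not counted over all genes.

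**Figure D5:**
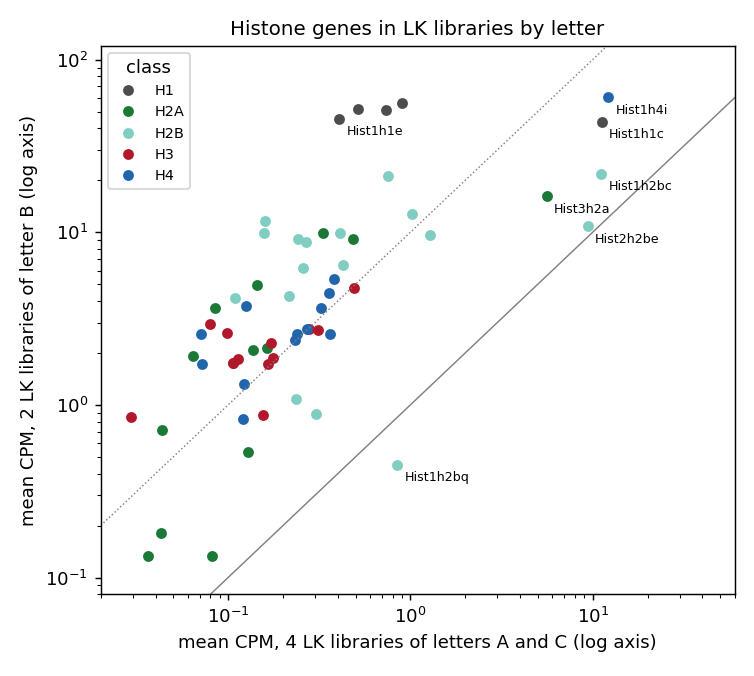
Mean CPM of each member in the 2 LK libraries of letter B (vertical, log axis) against the 4 of letters A and C (horizontal, log axis), coloured by class; the solid line marks equal levels and the dotted line 10-fold. Most members lie above the dotted line, and Hist2h2be and Hist1h2bq lie near or below the solid line. Hist1h2bq has the same coding sequence as Hist1h2br, and the sum of both is higher in letter B.

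Within a letter the genotypes lay closer. The log2 ratio of summed member CPM, KO over WT, was -0.32 in A, -0.36 in B and -0.01 in C. For H3 it was -0.95, -1.37 and -0.17, and for H4 it was -0.02, -0.64 and 0.68, so KO was below WT in each letter for H3 and not for H4. With the letter as a block 8 members were called lower, against 12.8% of all genes, and none higher, against 9.9%. They were Hist1h1c (-0.94, adjusted p = 0.0088), Hist1h4c (-1.84, 0.0165), Hist1h4d (-1.80, 0.0167), Hist1h4m (-1.62), Hist1h2bg (-1.35), Hist1h2bk (-1.32), Hist1h2bl (-1.06) and Hist1h2bj (-0.99), by edgeR. Markers of other cells moved in LK too, where 0.661% of all genes were called lower without the block and 12.8% with it. The 10 granulocyte and monocyte markers summed to 9406 to 17410 CPM in KO and 23240 to 49740 in WT (median log2 fold change -2.19), and none was called lower without the block and 9 with it. The 10 macrophage markers summed to 110.1 to 234.9 against 255.4 to 328.4 CPM, with 2 of 7 tested lower without the block and 3 with it. The 9 erythroid markers summed to 266.8 to 544 against 268.7 to 567.4 CPM, 1 lower without the block and 3 with it, and the 6 progenitor markers to 1182 to 1533 against 1089 to 1180 CPM. The part of these cells in the LK values was not tested.

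Hist1h1c was at 16.2, 57.7 and 13.2 CPM in the LK WT libraries A, B and C and at 7.34, 29.7 and 8.10 in KO. Hist1h4c was at 0.568, 5.92 and 0.408 CPM in WT and 0.154, 1.34 and 0.171 in KO. Hist1h4d was at 0.703, 8.92 and 0.408 CPM in WT and 0.216, 1.87 and 0.199 in KO. In these genes KO was below WT within each letter, while letter B of KO was above letters A and C of WT, so the groups overlapped (log2 fold changes without the block -0.95, -2.12 and -2.20, edgeR adjusted p = 0.555, 0.452 and 0.466). Hist1h3c was at 0.785, 7.86 and 0.408 CPM in WT and 0.401, 1.61 and 0.370 in KO (-1.95, SE 1.18, edgeR adjusted p = 0.451). Hist1h2bk was at 1.24, 29.2 and 0.962 CPM in WT and 0.648, 13.4 and 0.171 in KO. Hist2h2aa1 was at 0.460, 8.35 and 0.292 CPM in WT and 0.493, 9.97 and 0.682 in KO, the KO value above the WT value in each letter. Hist2h2be had the smallest p. It was at 8.82, 8.75 and 6.50 CPM in WT and 11.8, 12.9 and 10.6 in KO, with no overlap (0.55, SE 0.237, edgeR adjusted p = 0.29).

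Genes of the factors that make or remove histone mRNA fell more often than they rose in Ter119pos KO. Of all genes there, 29.3% were called lower and 24.8% higher. All 6 factors listed for histone gene transcription fell in KO, among them Npat (30.3 ± 1.07 against 58.5 ± 1.21 CPM, -0.95, adjusted p = 7.31e-06), Hinfp (-0.81) and Pou2f1 (-1.46). Of 16 3′ processing genes 8 fell, among them Slbp (144.6 ± 4.84 against 228.6 ± 4.91 CPM, -0.66, adjusted p = 0.000475), the U7 snRNP protein Lsm11 (-0.54), the arsenite resistance protein gene Srrt (-1.37) and Casp8ap2 (-1.34). The 5 that rose encode Sm ring proteins, which U7 shares with spliceosomal snRNPs, namely Snrpe (1.15), Snrpg (0.92), Snrpf (0.91), Snrpd3 (0.52) and Snrpb (0.44). With library totals none of these 5 was called higher. Of 5 decay genes 3 fell, among them the exonuclease gene Eri1 (-0.84) and the uridylyltransferase gene Zcchc6 (-1.84), and Lsm1 rose (0.84).

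Histone chaperones and replication genes also fell in Ter119pos KO. Of 15 chaperone genes 10 fell, against 29.3% of all genes, and none rose, against 24.8%. Of 45 S phase and DNA replication genes 29 fell and 4 rose against the same shares, with a median of -0.64. The summed level of the S phase list was 3908 to 3940 CPM in KO and 5835 to 5845 CPM in WT. Of 11 replication-independent histone genes 3 rose, namely H2afx (985.6 ± 6.46 against 196 ± 66.8 CPM, 2.33, adjusted p = 7.14e-06), H2afj (2.05) and H2afz (0.47), and 5 fell, among them H1f0 (-1.23) and H3f3b (-0.54). H2afx, whose transcript can end at a stem-loop as well as in a poly(A) tail, encodes the histone that is phosphorylated at DNA breaks.

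In the WT fractions these lists moved with Ter119 on the TMM scale. There 6 of 6 transcription factors (median 1.05) and 35 of 45 S phase genes (median 0.83) were higher in Ter119pos, against 35.9% of all genes. With library totals the median over all genes moved from -0.19 to -1.35, so these rises are given for the TMM scale alone. In Ter119neg KO against WT, 15 of 45 S phase and 5 of 15 chaperone genes fell, against 9.55% of all genes, and none rose, against 9.57%, and Hinfp (0.52) rose while Pou2f1 (-0.37) and the U7 snRNP gene Lsm10 (-0.63) fell. In LK no gene of the 6 histone and replication lists was called without the block. With the letter as a block 10 of 45 S phase genes and 6 of 11 replication-independent histone genes were called lower, against 12.8% of all genes. Of the other 4 lists 2 of 16 processing, 1 of 6 transcription and 1 of 15 chaperone genes were then lower and 1 gene of each was higher, and of 5 decay genes 1 was higher.

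Markers of other cell types differed in part between genotypes. Of all genes tested in Ter119pos, 24.8% were called higher and 29.3% lower. In Ter119pos the summed erythroid markers ran from 335500 to 439500 CPM in KO and from 303200 to 338200 in WT, most of it globin. Of 9 erythroid markers tested 1 was called higher, Klf1 (0.66). The 2 called lower were Slc4a1 (5008 and 4263 against 14110 and 11760 CPM) and Ermap (539 and 447.8 against 2143 and 1757 CPM). With library totals 8 were lower, against 54% of all genes, and none higher, against 8.72%. The 10 granulocyte and monocyte markers summed to 29.4 to 82.0 CPM in KO and 95.9 to 186.4 in WT, 6 called lower. The 10 macrophage markers summed to 64.3 to 80.5 against 63.3 to 96.8 CPM, with overlap. Of them 3 were called lower, close to the share of all genes. The 8 hepatoblast markers summed to 57.0 to 85.2 against 32.0 to 45.7 CPM, 3 called higher. In Ter119neg all 10 macrophage markers fell (32.5 to 36.7 against 143.8 to 155.6 CPM), against 9.55% of all genes. There 6 of 9 erythroid markers rose, against 9.57%. None of these markers was at 0 in all libraries of a fetal group, and the part of these cells in the histone results was not tested.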

How the data were processed

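For all 14 libraries the labels' protocols name a total RNA kit that keeps strand. Fetal RNA was taken up in Trizol and depleted of ribosomal RNA with Ribo-Zero, and LK RNA was taken with a column kit with no depletion named, per the labels' protocols. The authors deposited expected counts per gene from RSEM. The submitters' processing notes name STAR 2.5.3, RSEM and GRCm38 (mm10). The version of RSEM is not given in the sources used here, nor is the annotation behind its counts. The pseudogene, length, UTR and GC annotation was GENCODE, and 68 members matched it by identifier and 2 by symbol.

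Expected counts were rounded. The test was the quasi-likelihood F test of edgeR 4.0.16 under R 4.3.3, with TMM factors and filterByExpr, 8 fetal libraries in 1 model (15566 genes) and 6 LK libraries in another (13771 genes). P-values were adjusted over all genes of a comparison by Benjamini and Hochberg and called under 0.05. The SE is the absolute log2 fold change over the root of F. Sums over members have no test. Members and lists were chosen with earlier results of these data known. Values in full are given for the called members with the largest change (up to 4 per direction, mean of at least 5 CPM), for up to 4 with the smallest p where none was called, and for the most abundant member of each class. Hist1h1t, the single member called in Ter119neg, and the copies and pairs were named after their values were seen. Floors take 3 counts over a group and cover counting error only.

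Alternatives were RLE size factors, no filter on low counts, DESeq2 1.42.0, limma-voom (limma 3.58.1), removal of globin and ribosomal RNA from normalisation, removal of a length trend (lowess, span 0.3), models of 1 fraction, blocks, and each library left out. Where 1 library remained in a group, it was assumed to vary like the others. Library totals and removal of a GC trend were added after seeing the data. LK libraries of the same letter deviated together (r = 0.604, 0.719 and 0.73 for A, B and C), so the letter block is given beside LK results, although no label says what a letter shares. Fetal letters did not pair (r = 0.0047 and -0.029). For mice the labels give the pairing across fractions (r = 0.155 for mice 1 and 2, -0.068 for mouse 4). Tested on simulated data with 100 genes changed 2-fold and 100 changed 4-fold, the Ter119pos comparison recovered 94 and 100 of them with 16 false calls. In each simulation the changed genes had a mean above 5 CPM and the most variable genes were left out.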

Additional observations from a re-analysis of the deposited data

Results flagged for a closer look

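The KO effect differed between the Ter119pos and Ter119neg fractions by a direct test (interaction term, edgeR quasi-likelihood, adjusted p under 0.05). This marked 63 of 68 members as having a higher effect in Ter119pos, against 19.3% of all genes, and 1 as having a lower one, against 22.4%. Among the members given in full, the log2 difference was 4.82 for Hist1h2ai, 4.44 for Hist1h2ah, 4.24 for Hist2h3b, 3.07 for Hist1h2an, 2.49 for Hist1h4c, 2.37 for Hist2h2aa1, 2.31 for Hist1h3f, 1.65 for Hist1h2bk, 1.35 for Hist1h1c and -1.30 for Hist2h2be. Hist2h3b shares reads with its copies, and its call was lost in DESeq2 (adjusted p = 0.312).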

How the results depend on the processing

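The counts called higher in Ter119pos (65) and in the interaction (63) stayed within 1.5 times under each alternative run, at 50 to 65 and 54 to 64. Of the 67 members called in Ter119pos, 5 turned with library totals (all from higher, -0.35 to -0.005) and 3 of 65 with a length trend removed (Hist1h2bl -0.09, Hist1h2bn -0.20 and Hist2h2bb -0.32), none called after turning. DESeq2 and limma-voom each called 2 members lower in the interaction in place of 1, where 2891 and 3470 genes in all were lower. In Ter119neg the count of 0 members lower became 2 of 70 with no low count filter, where 1916 genes in all were lower. With a length trend removed it was 6 of 66, close to the share of all genes (1582 of 15489). It was 6 of 68 with library totals (18.8% of all genes). With a replicate block within the fraction it was 1 of 66, where 1915 genes in all were lower. Leaving out 1 library gave member medians of -0.36 to 0.02. In the WT fraction comparison the 16 lower became 32 of 70 with no filter, where 7087 genes in all were lower. With a length trend removed they became 25 of 66, beside 5729 of 15489 genes. The 20 higher and 16 lower became 3 and 56 with library totals and 37 and 4 with a GC trend removed, with the shares of all genes given above. Leaving out 1 library gave 10 to 23 higher and 8 to 25 lower there. With library totals Hist2h2aa1 (-1.16) and Hist1h2bk (-0.99) turned in that comparison from 0.00 and 0.16, and in the KO fraction comparison 17 were higher and 2 lower. Library totals and the GC trend were chosen after seeing the data, and the cause of these shifts was not tested.

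For pairing, the letter block in LK called 8 lower in place of 0, beside 12.8% of all genes. The block with a length trend removed called 3 of 35 higher and 5 lower, where 1714 genes in all were higher and 2042 lower. The mouse block in the WT fraction comparison called 9 higher and 39 lower, and Hist2h2aa1 turned to -0.59. It moved no other count by over 1.5 times. Low histone counts left 34 of 70 LK members untested. On simulated counts 2 of 100 changes of 2-fold passed there, in genes above 5 CPM with the most variable left out.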
